A study of Zea mays with 12 samples.

Results

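Stem borer feeding was set against mechanical wounding in the maize stem, to ask how a plant that carried living larvae differed from one that was cut without an insect. The comparison took 3 libraries of plants infested with larvae of Sesamia nonagrioides, the pink stem borer, and 3 libraries of wounded plants, which together are 6 of the 12 libraries of the series. Its members were the features of the count table that carry a maize gene identifier, 29723 of 194389 features in all, and 19023 of them had enough counts to be tested. All plants were of PB130, an inbred line resistant to the borer, so the data describe 1 genotype. Larvae were placed between leaf sheath and stem below the main ear. Wounded plants had their leaf sheaths scratched with a scalpel, phosphate buffer put on the scratches and the place sealed with parafilm, and the scratching was repeated every other day. Untreated control plants, also 3 libraries, are given as the background, and all plants were sampled on day 15. Each library held RNA from a piece of the internode below the ear that showed no damage, with the sheath removed, so the values describe stem tissue near the attack and not the wound itself. The wounds were made in the sheath and the larvae were set against the stem. This difference in place, the buffer, the parafilm and the repeated scratching cannot be told apart from the difference between insect and blade.

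Plants answer damage through jasmonates, hormones made from fatty acids by enzymes that include certain lipoxygenases, allene oxide cyclase and certain oxophytodienoate reductases. Responses to them are held back by the JAZ repressor proteins. In maize, defence downstream includes protease inhibitors that block insect digestion, benzoxazinoids (toxic indole-derived compounds stored as glucosides), terpenoids, and pathogenesis-related (PR) proteins such as chitinases and glucanases that attack fungal walls. A stem also defends itself by its walls, in which cellulose, lignin and cross-linked structural proteins make the tissue hard to chew.

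Counts came from Massive Analysis of 3′-cDNA Ends (MACE), in which a transcript is read once close to its 3′ end, so that longer genes gain no extra counts. Levels are given in CPM, counts scaled to a common library size. Larva libraries held 9882273, 8501500 and 5651382 counts, against 8144412, 10056972 and 7970625 in wounding libraries. Maize genes took 84.9%, 89.1% and 88.8% of all counts in larva libraries, against 74.4%, 58.4% and 68% in wounding libraries. The groups did not overlap (larva 87.6% ± 2.32, wounding 66.9% ± 8.03, SD, n = 3 each), and the exact 2-sided permutation test gave p = 0.1, the smallest that 3 against 3 allows. The remainder of the wounding counts lay mostly in contigs assembled from reads with no place on the genome. Contigs whose best match was in 1 of 9 fungal genera took 3.31%, 0.223% and 0.236% in larva libraries, against 10.9%, 24.8% and 12.4% in wounding libraries and 0.501%, 0.238% and 0.427% in controls. Fungal sequence therefore moved with the comparison, and its part in the maize gene differences below was not tested. In bulk tissue, fewer cells of a type and less RNA per cell cannot be told apart.

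**Figure D1:**
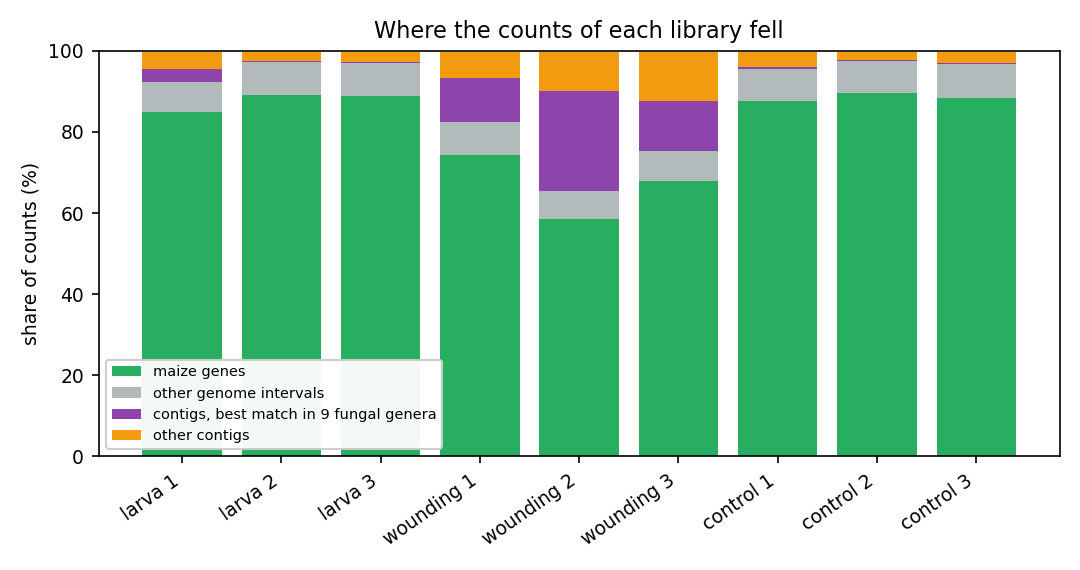
Share of all counts (%, vertical axis) in maize genes, other genome intervals, contigs matched to 9 fungal genera and other contigs, as stacked bars for each larva, wounding and control library. Fungal contigs reached 10.9% to 24.8% in wounding libraries and at most 3.31% in larva libraries.

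Larva replicates 2 and 3 were nearly alike. Compared over 20761 genes, their counts gave a chi-square per degree of freedom of 1.55, and the other replicate pairs of these groups gave 28.6 to 38.4. They differed by more than counting noise and were kept as separate samples, but the spread within the larva group rests mainly on replicate 1. Each count of called genes is therefore also given with this pair summed as 1 sample. The study's methods give 3 plants per treatment and the labels a larger number, so it is not settled whether a library is 1 plant or a pool, nor whether replicates 2 and 3 share plant material. P-values measure only the spread among these 3 libraries per group.

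At an adjusted p under 0.05 (edgeR quasi-likelihood test, Benjamini-Hochberg over all tested genes), 8302 genes were called, 43.6% of those tested. Of these, 4086 (21.5%) were higher and 4216 (22.2%) lower in larva libraries, and with replicates 2 and 3 summed 5835 were called, 2902 higher and 2933 lower. The even split depends on the scaling. With TMM over maize genes 49.2% of calls were higher, against 72.1% when total counts alone set the library size and 67.5% when every feature entered the scaling. Those settings moved the median over all genes by 0.39 and 0.33 on the log2 scale, so each direction is relative to the bulk of maize genes. At least 8-fold differences were called for 541 higher and 730 lower genes. The values of both groups did not overlap for 11248 genes, 59.1% of those tested. Below, rose and fell mean higher and lower in larva than in wounding libraries, not a change from untreated plants. The control mean lay nearer to the larva than to the wounding mean for 7864 called genes (94.7%), and for 81.1% of tested genes. Counts of called members in each list are to be read against the 21.5% higher and 22.2% lower over all tested genes.

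Among the called genes with the largest fold changes and no overlap, several have no described function. GRMZM2G163406, an uncharacterized gene, had 744, 614 and 631 CPM in larva libraries, against 9.35, 14.4 and 16.8 CPM in wounding libraries (log2 fold change 5.62 ± 0.30 SE, adjusted p = 0.00027). A patatin, GRMZM2G154523, of a family of lipid hydrolases, had 74.3, 175 and 190 CPM in larva libraries, against 1.62, 4.38 and 2.1 CPM in wounding libraries (log2 fold change 5.76 ± 0.53 SE, adjusted p = 0.000699). Every larva library lay far above every wounding library for both genes, and the controls averaged 355 ± 115 CPM and 42.3 ± 29.9 CPM (SD, n = 3). At the other end stood the dehydrin DHN1 (GRMZM2G079440), a protein that protects drying cells, with 4.63, 4.66 and 4.67 CPM in larva libraries, against 585, 1470 and 2800 CPM in wounding libraries (log2 fold change -8.44 ± 0.71 SE, adjusted p = 0.000532). Controls had 18.6, 4.56 and 6.1 CPM, so the wounding libraries stood far above both other groups, while they differed among themselves by several-fold. GRMZM2G570968, uncharacterized, had 1 count over the larva libraries and 1020 over the wounding libraries, a ratio of 1610 with a 95% counting interval of 289 to 63700. GRMZM2G449447 had no count in any larva library and 293 in wounding libraries, at least 154-fold higher after wounding when 3 counts over the group are taken as the floor.

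**Figure D2:**
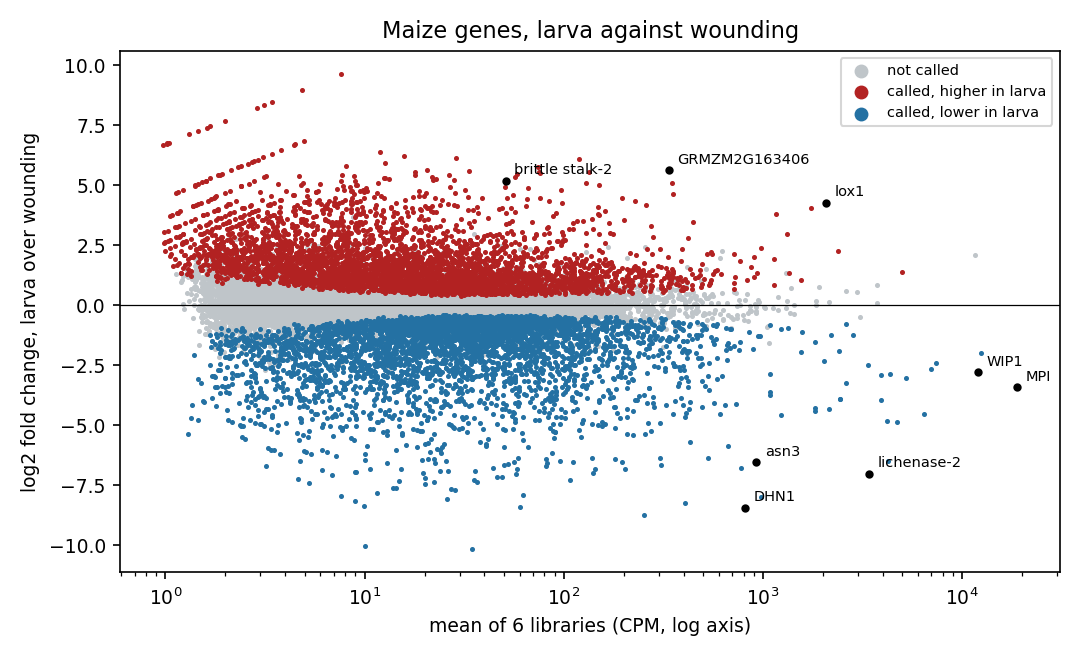
Log2 fold change of larva over wounding (vertical axis) against mean level in CPM (log axis) for the 19023 tested maize genes, with called genes coloured by direction. The 4086 higher and 4216 lower genes spread over the range of levels, and the diagonal lines of points at the upper left are genes with few or no wounding counts, whose fitted fold changes set no bound.

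Genes of the jasmonate list moved in both directions, and being listed does not show that a member acts in jasmonate synthesis. In this list 10 of 28 tested members were higher in larva libraries and 12 were lower (median log2 fold change -0.41), while the median over all 19023 tested genes was 0.01. Lipoxygenase lox1 (GRMZM2G156861), which oxygenates fatty acids, had 1880, 5110 and 4850 CPM in larva libraries, against 347, 83.6 and 178 CPM in wounding libraries (log2 fold change 4.28 ± 0.67 SE, adjusted p = 0.0033). The lowest larva value, in replicate 1, was still above the highest wounding value, and controls lay above the wounding libraries at 2390, 1670 and 856 CPM. Further along the pathway, the allene oxide cyclase genes aoc1 (GRMZM2G077316) and aoc2 (GRMZM2G415793) were higher than after wounding, with log2 fold changes of 2.77 and 2.58. Their control means, 111 ± 46.5 and 69.6 ± 6.05 CPM (SD, n = 3), lay nearer the larva means of 110 and 86.3 CPM than the wounding means of 16 and 14.3 CPM. Lipoxygenase lox6 (GRMZM2G040095, 3.10) and oxophytodienoate reductase opr6 (GRMZM2G068947, 3.07) were also higher. Other members of the same enzyme families fell. The reductase opr1 (GRMZM2G106303) had 3.79, 1.28 and 2.07 CPM in larva libraries, against 41, 89.6 and 55.8 CPM in wounding libraries (log2 fold change -4.67 ± 0.47 SE, adjusted p = 0.000824), opr2 (GRMZM2G000236) fell by 3.43 on the log2 scale, lipoxygenase lox4 (GRMZM2G109056) fell by 2.04 and lox9 (GRMZM2G017616) fell by 1.94. Both extremes of the list carry the description jasmonate-induced protein. GRMZM2G050412 had 187, 264 and 249 CPM in larva libraries, against 3.78, 3.13 and 3.37 CPM in wounding libraries (log2 fold change 6.08 ± 0.24 SE, adjusted p = 0.00017). GRMZM2G438824 had 0.736, 1.28 and 1.56 CPM in larva libraries, against 196, 1100 and 211 CPM in wounding libraries (log2 fold change -8.74 ± 0.98 SE, adjusted p = 0.00111). Summing larva replicates 2 and 3 left 8 higher and 7 lower, the count was 7 lower without larva replicate 2 or 3, and it was 6 lower with every feature scaled.

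**Figure D3:**
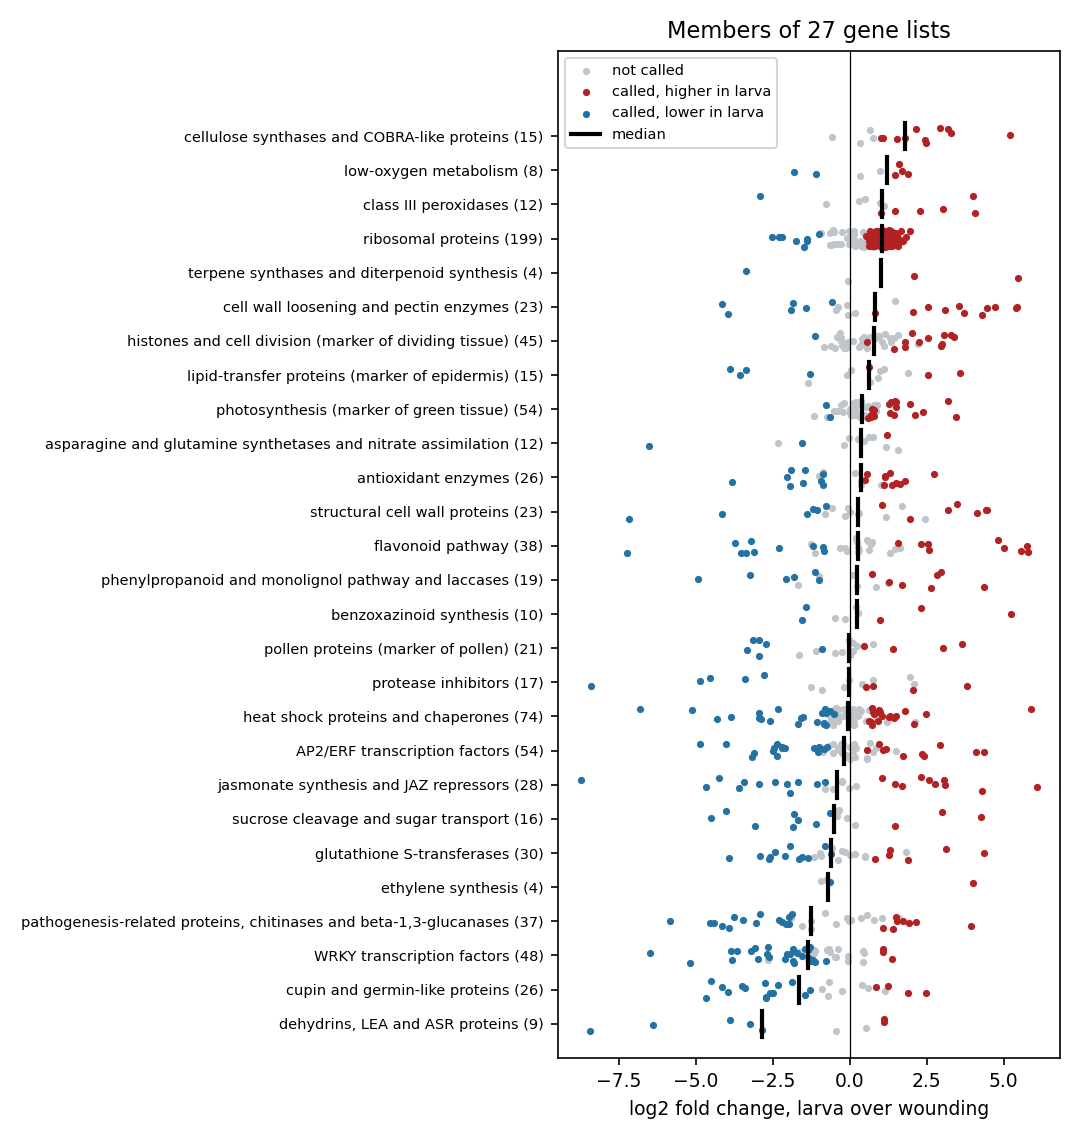
Log2 fold change of larva over wounding (horizontal axis) for the tested members of 27 gene lists, 1 list per line with the number tested in brackets, ordered by the list's median (black bar). Cellulose synthases lay highest, with a median of 1.80, and dehydrins lowest, at -2.87.

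For benzoxazinoid synthesis, 3 of 10 tested members were higher in larva libraries and 2 were lower (median log2 fold change 0.23), and the median was -0.17 over features of 1 identifier. These counts are 30% and 20%, against 21.5% and 22.2% over all tested genes. BX4 (GRMZM2G172491), a cytochrome P450 that oxidizes a pathway intermediate, had 20.3, 50.3 and 58.6 CPM in larva libraries, against 1.26, 1.25 and 0.842 CPM in wounding libraries (log2 fold change 5.23 ± 0.51 SE, adjusted p = 0.000771). All larva values exceeded all wounding values, and the control mean of 38.6 ± 22.9 CPM (SD, n = 3) was close to the larva mean of 43.1 CPM. BX8 (GRMZM2G085054), which adds glucose to benzoxazinoids, had 55.3, 51.1 and 49.1 CPM in larva libraries, against 10.4, 6.25 and 14.5 CPM in wounding libraries (log2 fold change 2.32 ± 0.29 SE, adjusted p = 0.00155). BX6, a dioxygenase counted jointly with assembled contigs, rose by 0.97 (adjusted p = 0.00659), and the call was lost with all 12 libraries in 1 fit (adjusted p = 0.132). Called members also went the other way. GRMZM5G841619 entered the list by its description, indole-3-glycerol phosphate lyase, but RefSeq gives it the synonym TSA, the alpha subunit of tryptophan synthase, so its place in this pathway is not established. It had 217, 107 and 116 CPM in larva libraries, against 386, 365 and 416 CPM in wounding libraries (log2 fold change -1.41 ± 0.30 SE, adjusted p = 0.00969), and CYP71C2 (GRMZM2G167549, counted jointly with contigs) fell by 1.55. GRMZM5G841619 was not called when every feature was scaled (adjusted p = 0.0695). The counts were the same, 3 higher and 2 lower, with larva replicates 2 and 3 summed.

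Protease inhibitors differed in both directions. Over the list, 4 of 17 tested members were higher in larva libraries and 5 were lower (median log2 fold change -0.03), against 21.5% higher and 22.2% lower over all tested genes, and the sign of the median changed under several settings, from 0.01 without wounding replicate 2 to 0.40 without larva replicate 1. The maize proteinase inhibitor MPI (GRMZM2G028393) had 1730, 3960 and 4030 CPM in larva libraries, against 31100, 47200 and 25200 CPM in wounding libraries (log2 fold change -3.41 ± 0.56 SE, adjusted p = 0.00387). WIP1 (GRMZM2G156632), the wound-induced Bowman-Birk inhibitor, had 2260, 3450 and 3360 CPM in larva libraries, against 13700, 24500 and 24700 CPM in wounding libraries (log2 fold change -2.79 ± 0.44 SE, adjusted p = 0.00345). Control means were 883 ± 293 CPM for MPI and 3030 ± 622 CPM for WIP1 (SD, n = 3), so the wounding libraries stood apart from both other groups. A Bowman-Birk trypsin inhibitor, GRMZM2G075315, fell by 4.86 on the log2 scale and cystatin GRMZM2G401328, an inhibitor of cysteine proteases, by 4.56. Cystatin2 (GRMZM2G012160) had 6470, 24900 and 25300 CPM in larva libraries, against 7900, 1670 and 3680 CPM in wounding libraries. Its groups overlapped and it was not called (log2 fold change 2.09 ± 0.76 SE, adjusted p = 0.0594). It was called (adjusted p = 0.00404 to 0.0471) with total counts alone, DESeq2, limma voom, no filter on low counts and all 12 libraries in 1 fit, and without larva replicate 1, wounding replicate 1, or larva replicate 1 and wounding replicate 2 together. Of the members that rose, GRMZM2G042789, which the count file leaves uncharacterized and the study chose on these libraries and names a subtilisin-chymotrypsin inhibitor, had 82.2, 3290 and 3100 CPM in larva libraries, against 292, 120 and 49.9 CPM in wounding libraries (log2 fold change 3.81 ± 1.27 SE, adjusted p = 0.0462). Larva replicate 1 lay below wounding replicates 1 and 2 for this gene, and the call was lost without larva replicate 2 or 3 or any 1 wounding library, with the pair summed, with every feature scaled and with limma voom (adjusted p = 0.0539 to 0.125). Larva replicates 2 and 3 summed left 1 higher and 5 lower, and 1 higher without larva replicate 2 or 3 or wounding replicate 2.

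PR proteins were more often lower than higher in larva libraries. 8 of 37 tested chitinases, glucanases and other PR genes were higher in larva libraries and 15 were lower (median log2 fold change -1.26), against 22.2% lower over all tested genes. PRMS (AC205274.3_FG001), a PR protein of maize seed, had 28.4, 17.7 and 22.1 CPM in larva libraries, against 788, 1540 and 1630 CPM in wounding libraries (log2 fold change -5.85 ± 0.41 SE, adjusted p = 0.000387). Chitinase 1 (GRMZM2G358153) had 148, 72 and 81.1 CPM in larva libraries, against 1460, 3240 and 2400 CPM in wounding libraries (log2 fold change -4.56 ± 0.46 SE, adjusted p = 0.000859). No larva value of either gene reached the lowest wounding value. Zeamatin (GRMZM2G374971), an antifungal protein that permeabilizes membranes, fell by 4.15, PR10 (GRMZM2G075283) by 3.76 and a thaumatin-like protein counted jointly under GRMZM2G006853 and GRMZM2G136372 by 1.99, the last not called when every feature was scaled (adjusted p = 0.0565). Chosen after its values were seen, lichenase-2 (GRMZM2G137535), a glucan hydrolase, had 78, 36.5 and 42.2 CPM in larva libraries, against 6070, 7540 and 6730 CPM in wounding libraries (log2 fold change -7.02 ± 0.47 SE, adjusted p = 0.000343), and controls had 59.6, 36.8 and 24.8 CPM. Some members went up, among them GRMZM2G168364 (1.74), described as an endochitinase, and glucanase GRMZM2G125241 (3.95). RefSeq gives GRMZM2G168364 the symbol bk4, of the same form as bk2 for brittle stalk-2, so a role as a PR protein is not established. Another PR10 feature, counted jointly under GRMZM2G112524 and GRMZM2G112538 and chosen after its values were seen, had 1170, 2060 and 2190 CPM in larva libraries, against 634, 166 and 644 CPM in wounding libraries (log2 fold change 1.91 ± 0.54 SE, adjusted p = 0.0267). It was not called with larva replicates 2 and 3 summed (adjusted p = 0.0771), with all 12 libraries in 1 fit (adjusted p = 0.0902) or without larva replicate 2 or 3 (adjusted p = 0.0738 and 0.0785). Summed CPM of the list were 10400, 9770 and 10200 with larvae, against 37800, 42000 and 71100 after wounding, and fungal contigs were at 0.223% to 3.31% and 10.9% to 24.8% in the same libraries. Their part in the PR differences was not tested. Summing larva replicates 2 and 3 left 6 higher and 13 lower.

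Cupin and germin-like proteins, which include enzymes that make hydrogen peroxide in the wall, were mostly lower as well. 4 of 26 tested members were higher in larva libraries and 15 were lower (median log2 fold change -1.66), against 22.2% lower over all tested genes, but 10 identifiers of this list were picked by the study on the same libraries, which makes it no independent evidence of direction. Against untreated plants, the study reports most of its cupin-like transcripts as higher after larval feeding. Lower here therefore means lower than after wounding. Summed over the list, larva libraries had 839, 915 and 883 CPM and wounding libraries 3270, 2050 and 2620 CPM. Controls had 757, 827 and 761 CPM. Germin-like GRMZM2G045809 had 96.6, 24.8 and 31.6 CPM in larva libraries, against 1450, 673 and 1390 CPM in wounding libraries (log2 fold change -4.52 ± 0.64 SE, adjusted p = 0.00248). Cupin GRMZM2G034724 fell by 4.66 and cupin GRMZM2G118992 rose by 2.49. With larva replicates 2 and 3 summed there were 2 higher and 12 lower, and there were 1 higher without larva replicate 2 and 2 higher without larva replicate 3. Among nonspecific lipid-transfer proteins, small wax-carrying proteins of the epidermis, 3 of 15 tested members were higher in larva libraries and 4 were lower (median log2 fold change 0.63), or 20% and 26.7%, near the 21.5% and 22.2% over all tested genes. Their most abundant member, GRMZM2G387360, had 231, 325 and 367 CPM in larva libraries, against 5350, 4490 and 3810 CPM in wounding libraries (log2 fold change -3.89 ± 0.33 SE, adjusted p = 0.000536), which made the summed level of the list lower with larvae although its median was above 0. Counts were 1 higher and 3 lower with larva replicates 2 and 3 summed, and 1 higher without larva replicate 2 or 3 and 5 higher without wounding replicate 3.

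**Figure D4:**
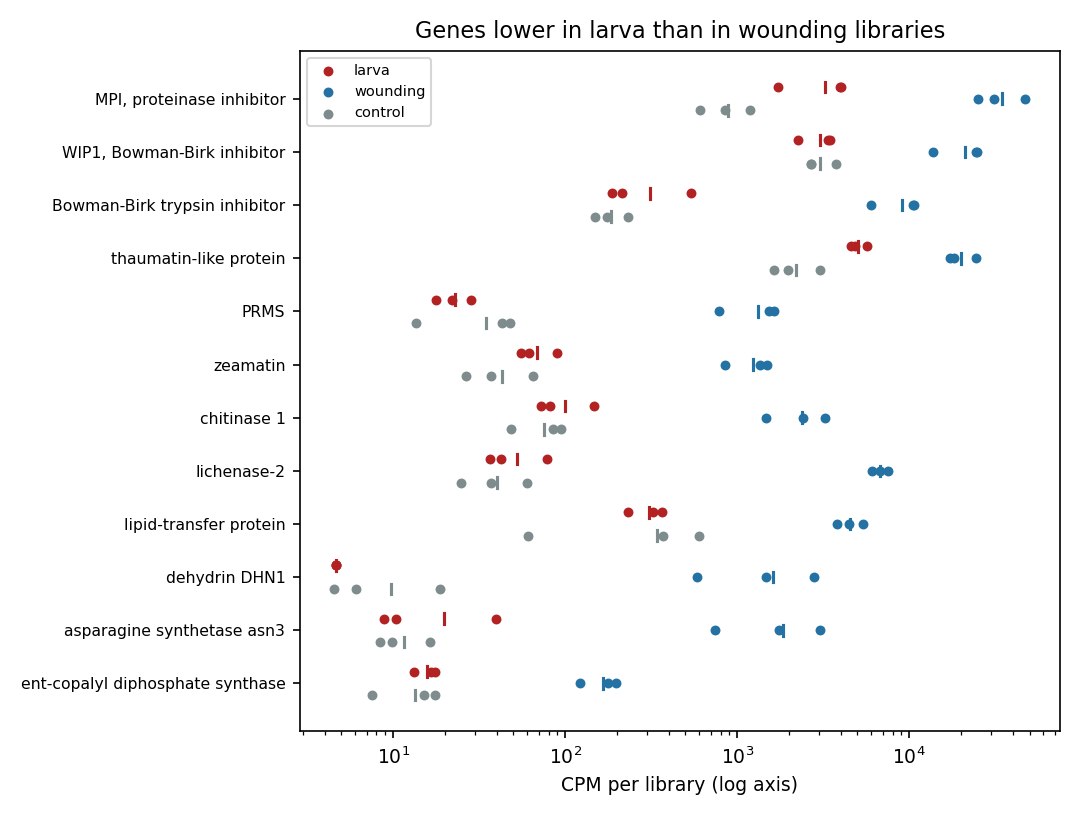
Level in CPM (log axis) of genes lower in larva than in wounding libraries, with 1 point per larva, wounding and control library and a bar at each group's mean. Larva and control points lie far below the wounding points, for example 4.63 to 4.67 CPM against 585 to 2800 CPM for DHN1.

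Terpenoid genes were few. Of 4 tested genes, 2 were higher and 1 lower (median log2 fold change 1.01). A monoterpene synthase, GRMZM2G030583, also named in the study, had 106, 114 and 121 CPM in larva libraries, against 3.6, 1.88 and 2.1 CPM in wounding libraries (log2 fold change 5.47 ± 0.27 SE, adjusted p = 0.00027). The ent-copalyl diphosphate synthase gene CPPS2 (GRMZM2G044481), which leads to diterpenoid defence compounds, had 16.5, 13.2 and 17.6 CPM in larva libraries, against 122, 197 and 178 CPM in wounding libraries (log2 fold change -3.39 ± 0.25 SE, adjusted p = 0.000402). Both groups were clearly separate for both genes and in opposite directions. The counts were 2 higher and 1 lower with larva replicates 2 and 3 summed, and 4 higher without larva replicate 1. In the flavonoid pathway 9 of 38 tested members were higher in larva libraries and 10 were lower (median log2 fold change 0.27). These shares, 23.7% and 26.3%, lay near the 21.5% and 22.2% over all tested genes. GRMZM2G383404 is described as an anthocyanidin glucosyltransferase, but RefSeq gives it the synonym CGTb, so a role in pigments is not established. It had 32.1, 37.5 and 36 CPM in larva libraries, against 0.899, 0.625 and 0.631 CPM in wounding libraries (log2 fold change 5.56 ± 0.23 SE, adjusted p = 0.00017). Chalcone synthase WHP1 (GRMZM2G151227), the entry enzyme, fell by 3.53, and dihydroflavonol reductase GRMZM2G152175 fell by 3.74. Counts were 10 higher and 9 lower with larva replicates 2 and 3 summed, and 14 higher with total counts alone.

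Wall-building genes had the highest median of the 27 lists. For cellulose synthases and COBRA-like proteins, 11 of 15 tested members were higher in larva libraries and 0 were lower (median log2 fold change 1.80). Brittle stalk-2 (GRMZM2G109326), a COBRA-like protein needed for strong maize stems, had 48.1, 118 and 134 CPM in larva libraries, against 2.52, 3.13 and 2.53 CPM in wounding libraries (log2 fold change 5.19 ± 0.46 SE, adjusted p = 0.000601). Cellulose synthase-7 (GRMZM2G025231) had 69.9, 78.1 and 69.7 CPM in larva libraries, against 10.1, 7.29 and 11.4 CPM in wounding libraries (log2 fold change 2.92 ± 0.20 SE, adjusted p = 0.000359). All wounding values of both genes were below all larva and control values, and the control means were 105 ± 44.8 CPM and 151 ± 45.8 CPM (SD, n = 3). Cellulose synthase-4 (GRMZM2G424832) rose by 2.49 and cellulose synthase-8 (GRMZM2G177631) by 2.45. The count of 0 lower in edgeR was also 0 with DESeq2 and limma voom, and 1 member was lower at an unadjusted p under 0.05. Summed over the list, larva libraries had 683, 537 and 547 CPM, wounding libraries 177, 198 and 194 CPM and controls 1140, 606 and 801 CPM. Larva replicates 2 and 3 summed gave 11 higher and 0 lower, and 1 lower without wounding replicate 3.

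Wall loosening and structural proteins were split. Of expansins, pectin enzymes and xyloglucan enzymes, 11 of 23 tested members were higher in larva libraries and 6 were lower (median log2 fold change 0.82). Alpha-expansin expa1 (GRMZM2G339122), which loosens growing walls, had 71.6, 43.4 and 40.3 CPM in larva libraries, against 1.26, 1.46 and 0.842 CPM in wounding libraries (log2 fold change 5.42 ± 0.35 SE, adjusted p = 0.000343), whereas expansin-like GRMZM2G026147 fell by 3.96. The most abundant member, a xyloglucan enzyme (GRMZM2G026980), was lower by 1.85 and lost its call without larva replicate 2 or 3, with the pair summed and with every feature scaled (adjusted p = 0.0716 to 0.0731). Counts with larva replicates 2 and 3 summed were 9 higher and 4 lower, and 7 higher without wounding replicate 2. Of structural wall proteins, 7 of 23 tested members were higher in larva libraries and 6 were lower (median log2 fold change 0.27), and without larva replicate 1 the median was -0.08. These counts are 30.4% and 26.1%, against 21.5% and 22.2% over all tested genes. Fasciclin-like arabinogalactan protein 7 (GRMZM2G001514), of a family found in hardening stems, had 166, 99.6 and 103 CPM in larva libraries, against 5.03, 9.79 and 6.1 CPM in wounding libraries (log2 fold change 4.14 ± 0.34 SE, adjusted p = 0.000532). Proline-rich protein GRMZM2G174719 had 42.4, 30.8 and 30.3 CPM in larva libraries, against 365, 1060 and 432 CPM in wounding libraries (log2 fold change -4.17 ± 0.48 SE, adjusted p = 0.0012). The counts were 8 higher and 3 lower with larva replicates 2 and 3 summed, 3 lower without larva replicate 2 or 3, and 3 lower with total counts alone and 3 lower with every feature scaled.

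**Figure D5:**
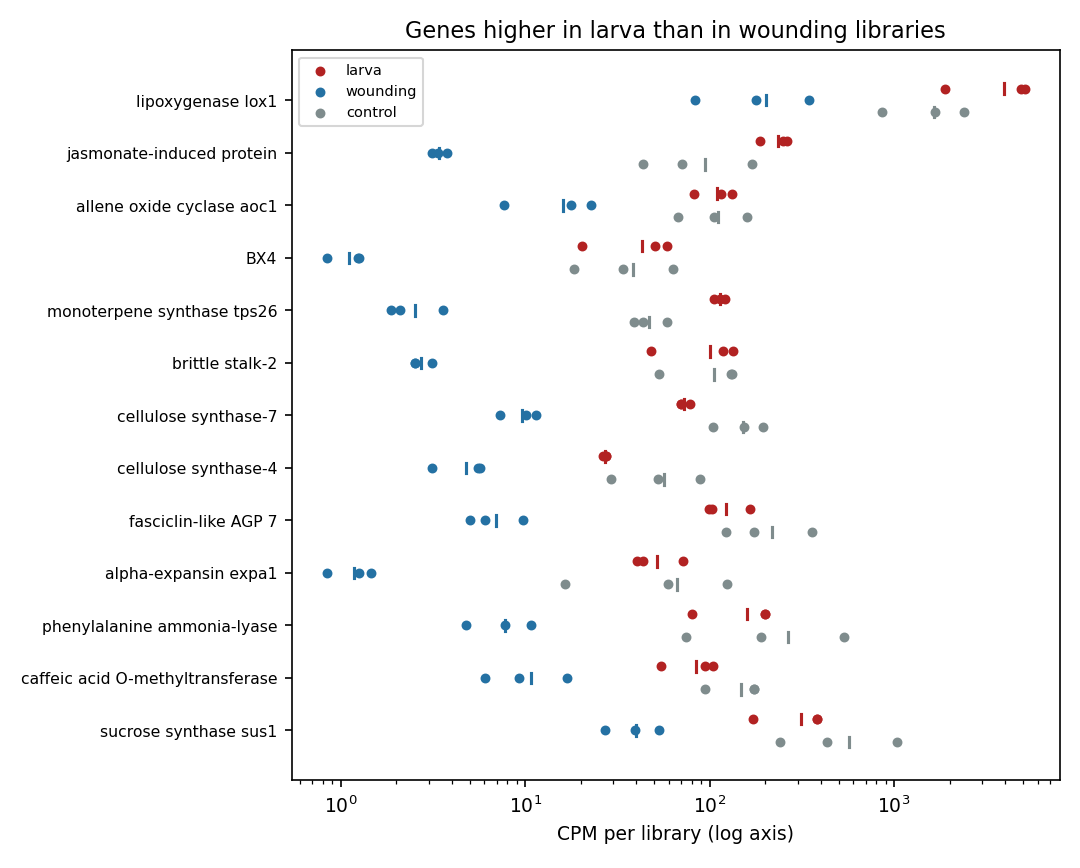
Level in CPM (log axis) of genes higher in larva than in wounding libraries, with 1 point per larva, wounding and control library and a bar at each group's mean. No wounding point reaches a larva point of its gene, as for brittle stalk-2 with 48.1 to 134 CPM in larva libraries against 2.52 to 3.13 CPM in wounding libraries.

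Phenylpropanoid and monolignol genes, which make the units of lignin, gave 7 higher and 6 lower members of 19 tested (median log2 fold change 0.23). Phenylalanine ammonia-lyase GRMZM2G441347, a gene of the entry step chosen after its values were seen, had 80.5, 199 and 200 CPM in larva libraries, against 10.8, 4.79 and 7.79 CPM in wounding libraries (log2 fold change 4.35 ± 0.47 SE, adjusted p = 0.00101). Caffeic acid O-methyltransferase AC196475.3_FG004 had 54.7, 104 and 94.4 CPM in larva libraries, against 16.9, 6.04 and 9.26 CPM in wounding libraries (log2 fold change 2.96 ± 0.42 SE, adjusted p = 0.00242). In both, wounding values were the low ones, and the controls averaged 267 ± 241 CPM and 148 ± 46.4 CPM (SD, n = 3). Cinnamyl alcohol dehydrogenase GRMZM5G844562 rose by 2.82 and CCoAOMT2 (GRMZM2G099363) by 2.63. Other phenylalanine ammonia-lyase genes were split. GRMZM2G074604, the most abundant member of the list, rose by 1.26 (adjusted p = 0.0113) and lost its call with all 12 libraries in 1 fit (adjusted p = 0.0897). GRMZM2G170692 fell by 1.81 (adjusted p = 0.00523). Laccases, which couple lignin units in the wall, were among those that fell, with -4.94 for GRMZM2G169033 and -3.23 for laccase 1 (GRMZM5G842071). Counting larva replicates 2 and 3 once left 5 higher and 3 lower, the counts were 3 lower without larva replicate 1, 2 or 3, and 3 lower with every feature scaled. Of class III peroxidases, which also act on lignin, 6 of 12 tested members were higher in larva libraries and 1 was lower (median log2 fold change 1.06). Peroxidase 70, counted jointly with contigs and named in the study, had 79.1, 95.6 and 91.3 CPM in larva libraries, against 7.19, 3.54 and 5.68 CPM in wounding libraries (log2 fold change 4.01 ± 0.27 SE, adjusted p = 0.000343), and peroxidase 1 (GRMZM2G089895) rose by 4.06. Controls had 226, 143 and 192 CPM for peroxidase 70, above every larva value. The peroxidase counts stayed at 6 higher and 1 lower with larva replicates 2 and 3 summed.

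For sucrose cleavage and sugar transport, 3 of 16 tested members were higher in larva libraries and 8 were lower (median log2 fold change -0.53), against 21.5% higher and 22.2% lower over all tested genes. Summed over the list, larva libraries had 1150, 1400 and 1330 CPM, wounding libraries 2740, 3430 and 3110 CPM and controls 2290, 1180 and 1680 CPM, so larva and wounding sums did not overlap. Sucrose synthase 2 (GRMZM2G152908), which splits sucrose and can feed cellulose synthesis, had 172, 384 and 383 CPM in larva libraries, against 52.9, 27.1 and 39.4 CPM in wounding libraries (log2 fold change 2.98 ± 0.40 SE, adjusted p = 0.00203). Cell wall invertase GRMZM2G139300, which cleaves sucrose outside the cell, had 80.3, 36.4 and 31.3 CPM in larva libraries, against 414, 1390 and 642 CPM in wounding libraries (log2 fold change -4.04 ± 0.60 SE, adjusted p = 0.00278). The vacuolar invertase gene IVR1 (GRMZM2G394450), counted jointly with a contig, fell by 4.52. Another invertase gene, ivr2 (GRMZM2G089836), had 2.42, 42.3 and 37.7 CPM in larva libraries, against 0.539, 1.46 and 2.32 CPM in wounding libraries (log2 fold change 4.26 ± 1.1 SE, adjusted p = 0.0188). Larva replicate 1 lay close to wounding replicate 3, and controls ranged from 0.833 to 81.4 CPM. The ivr2 call was lost with limma voom (adjusted p = 0.263) and with larva replicates 2 and 3 summed (adjusted p = 0.0502). It was also lost without larva replicate 2 or wounding replicate 1 or 2 (adjusted p = 0.0511 to 0.0613). Sucrose synthase 1 (GRMZM2G089713), the most abundant member and counted jointly with a contig, fell by 1.81 (adjusted p = 0.00225). Counts were 2 higher and 8 lower with larva replicates 2 and 3 summed, and 1 higher without larva replicate 2. Of genes for asparagine and glutamine synthesis and nitrate assimilation, 1 of 12 tested members was higher in larva libraries and 2 were lower (median log2 fold change 0.36). An asparagine synthetase (GRMZM2G053669), which packs nitrogen for transport, had 39.7, 8.85 and 10.4 CPM in larva libraries, against 1760, 3010 and 742 CPM in wounding libraries (log2 fold change -6.53 ± 0.88 SE, adjusted p = 0.00206). Every wounding library was at least an order of magnitude above every larva library for it, and the control mean was 11.6 ± 4.25 CPM (SD, n = 3). Larva replicates 2 and 3 summed gave 1 higher and 1 lower, with 0 higher without larva replicate 3, 4 higher without wounding replicate 1, 2 higher without wounding replicate 3 and 1 lower without larva replicate 1, 2 or 3.

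Of dehydrins, LEA and ASR proteins, which protect drying cells, 2 of 9 tested members were higher in larva libraries and 5 were lower (median log2 fold change -2.87), against 22.2% lower over all tested genes. The ASR gene GRMZM2G052100, named for abscisic acid, stress and ripening, had 370, 564 and 563 CPM in larva libraries, against 5410, 5180 and 3560 CPM in wounding libraries (log2 fold change -3.24 ± 0.34 SE, adjusted p = 0.000907), and the LEA gene GRMZM2G096475, counted jointly with contigs, fell by 6.39. The higher members were dehydrin 13 (GRMZM2G169372, chosen after its values were seen), with 696, 598 and 586 CPM in larva libraries, against 195, 238 and 435 CPM in wounding libraries (log2 fold change 1.12 ± 0.32 SE, adjusted p = 0.0283), and asr1 (GRMZM2G136910), which rose by 1.10. Dehydrin 13 was not called without any 1 larva library or wounding replicate 1 or 2 (adjusted p = 0.0661 to 0.084), and asr1 was not called without larva replicate 2 or 3 (adjusted p = 0.0572 and 0.0508). With larva replicates 2 and 3 summed there were 0 higher and 5 lower, and 1 higher without larva replicate 1 or wounding replicate 2 and 0 higher without larva replicate 2 or 3. For low-oxygen metabolism, 4 of 8 tested members were higher in larva libraries and 2 were lower (median log2 fold change 1.22). Alcohol dehydrogenase 2, of fermentation and counted jointly with contigs, had 1110, 1430 and 1380 CPM in larva libraries, against 542, 386 and 375 CPM in wounding libraries (log2 fold change 1.59 ± 0.25 SE, adjusted p = 0.00322), while pyruvate decarboxylase isozyme 2 (GRMZM2G038821) fell by 1.80. These counts became 2 higher and 1 lower with larva replicates 2 and 3 summed, and 2 higher without larva replicate 2 or 3 or wounding replicate 3 and 1 lower without larva replicate 2 or 3. Ethylene synthesis held 4 tested genes, of which 1 was higher and 1 lower (median -0.71). The higher one, the ACC oxidase gene AC148152.3_FG005, for the last step of ethylene synthesis, overlapped between groups at 5.99, 86.1 and 95.6 CPM with larvae, against 8.09, 2.29 and 1.05 CPM after wounding, and was not called with limma voom (adjusted p = 0.171) or all 12 libraries in 1 fit (adjusted p = 0.0683). Neither ethylene call held with larva replicates 2 and 3 summed. The list was built on the count file's descriptions and so does not hold GRMZM2G013448, which the file leaves uncharacterized. The study names that gene an ACC oxidase and reports it as repressed after larval feeding. Relative to wounding, GRMZM2G013448 rose by 3.09 on the log2 scale, as given below. The counts were 0 higher without larva replicate 2 or 3 or wounding replicate 2 or 3, 0 lower without larva replicate 2 or wounding replicate 1 and 2 lower without wounding replicate 2.

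Detoxification and oxidant genes were mixed. Of glutathione S-transferases, 6 of 30 tested members were higher in larva libraries and 12 were lower (median log2 fold change -0.60). IN2-1 (GRMZM2G042639, counted jointly with a contig) had 8.1, 7.57 and 6.74 CPM in larva libraries, against 31.3, 35.2 and 30.9 CPM in wounding libraries (log2 fold change -2.11 ± 0.16 SE, adjusted p = 0.000452), and the call was lost with all 12 libraries in 1 fit (adjusted p = 0.0778). GSTU6 (GRMZM2G028821), the most abundant, had 662, 971 and 915 CPM in larva libraries, against 1420, 658 and 921 CPM in wounding libraries, its groups overlapped, and its small difference changed sign with total counts alone, with every feature scaled and without wounding replicate 1. The count was 6 higher and 9 lower with larva replicates 2 and 3 summed. Among antioxidant enzymes, 11 of 26 tested members were higher in larva libraries and 9 were lower (median log2 fold change 0.35). The peroxiredoxin GRMZM2G139680 had 102, 77.8 and 79.2 CPM in larva libraries, against 28.4, 28.5 and 35.4 CPM in wounding libraries (log2 fold change 1.49 ± 0.18 SE, adjusted p = 0.0015), and glutathione peroxidase GRMZM2G144153 fell by 1.52. Counts of antioxidant genes were 9 higher and 4 lower with larva replicates 2 and 3 summed, 5 lower without larva replicate 1 and 4 lower without larva replicate 2 or 3, and 4 lower with every feature scaled.

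WRKY factors, regulators of defence genes, were the transcription factor list most often lower with larvae. 3 of 48 tested members were higher in larva libraries and 28 were lower (median log2 fold change -1.35), against 22.2% lower over all tested genes. GRMZM2G143765 had 8.1, 6.87 and 7.78 CPM in larva libraries, against 32.9, 34.8 and 30.5 CPM in wounding libraries (log2 fold change -2.11 ± 0.16 SE, adjusted p = 0.000447). The most abundant member, GRMZM5G863420, had 89.6, 73.9 and 69.7 CPM in larva libraries, against 217, 125 and 194 CPM in wounding libraries (log2 fold change -1.20 ± 0.24 SE, adjusted p = 0.00798) and was not called when every feature was scaled (adjusted p = 0.0728). The groups did not overlap for either gene. GRMZM2G174558 rose by 1.08. The counts were 2 higher and 19 lower with larva replicates 2 and 3 summed, 1 higher without larva replicate 2 and 17 lower without larva replicate 2, and 5 higher with total counts alone and 5 higher and 15 lower with every feature scaled. Of AP2/ERF factors, which include ethylene response regulators, 10 of 54 tested members were higher in larva libraries and 16 were lower (median log2 fold change -0.19), with a median of 0.20 for total counts alone and 0.15 with every feature scaled. These counts are 18.5% and 29.6%, against 21.5% and 22.2% over all tested genes. GRMZM2G059799 is described only as an ethylene-responsive protein, so its place among these factors is not established. It had 10.7, 10.1 and 10 CPM in larva libraries, against 214, 292 and 391 CPM in wounding libraries (log2 fold change -4.86 ± 0.28 SE, adjusted p = 0.000275). GRMZM2G013657, described as an AP2 domain factor, rose by 2.93. Summing larva replicates 2 and 3 gave 8 higher and 14 lower.

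Among lists that mark cell types and cell states, the shares of higher members were 73.9% for ribosomal proteins, 33.3% for photosynthesis and 26.7% for cell division, against 21.5% over all tested genes. Pollen proteins, with 19% higher and 28.6% lower, and heat shock proteins, with 25.7% and 28.4%, lay near the 21.5% and 22.2% over all tested genes. For ribosomal proteins, 147 of 199 tested members were higher in larva libraries and 8 were lower (median log2 fold change 1.05), and their summed levels were 53100, 35400 and 35200 CPM in larva libraries, against 25400, 27700 and 27600 CPM in wounding libraries. The highest larva sum belonged to replicate 1. Counts were 133 higher and 4 lower with larva replicates 2 and 3 summed, and 4 lower without larva replicate 2 or 3 and 5 lower without wounding replicate 2 or 3. Photosynthesis genes, a sign of green tissue, gave 18 of 54 higher, 2 lower, median 0.38, and their summed levels were 14900, 15700 and 15500 CPM with larvae, against 13800, 10900 and 9410 CPM after wounding. Those counts were 11 higher and 0 lower with larva replicates 2 and 3 summed, 10 higher without larva replicate 2, 11 higher without larva replicate 3 or wounding replicate 2, 1 lower without larva replicate 1 or wounding replicate 2, 0 lower without larva replicate 2 or 3 or wounding replicate 1 and 5 lower without wounding replicate 3, and 28 higher and 0 lower with total counts alone and 0 lower with every feature scaled. Histones and cell division genes gave 12 of 45 higher, 1 lower, median 0.78, with 10 higher and 0 lower when larva replicates 2 and 3 were summed, 7 higher without larva replicate 1 or wounding replicate 1, 4 lower without larva replicate 1, 0 lower without larva replicate 2 or 3 and 2 lower without wounding replicate 1, and 25 higher with total counts alone and 0 lower with every feature scaled. Their summed levels overlapped, at 11000, 5640 and 5260 CPM and 5160, 8220 and 6120 CPM. Pollen proteins gave 4 of 21 higher, 6 lower, median -0.03, a sign that turned with total counts alone (0.35), with every feature scaled (0.28), with larva replicates 2 and 3 summed (0.07), without larva replicate 2 (0.03) and without larva replicate 3 (0.09), and their counts were 3 higher and 4 lower in the summed fit and 2 higher without larva replicate 1 or 2 or wounding replicate 2 and 3 lower without larva replicate 2. Heat shock proteins and chaperones gave 19 of 74 higher, 21 lower, median -0.07, a sign that turned with total counts alone (0.32), with every feature scaled (0.26), with no filter on low counts (0.05) and over features of 1 identifier (0.03). Their counts were 15 higher and 12 lower in the summed fit, 11 lower without larva replicate 3, and 29 higher and 12 lower with total counts alone and 10 lower with every feature scaled. The part of tissue makeup in the results above was not tested.

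The study named 18 maize genes by identifier, chosen on libraries of this series, and 16 were tested here. Peroxidase 70 and the monoterpene synthase, given above, had no overlap between groups. GRMZM2G013448, which the study names an ACC oxidase and the count file leaves uncharacterized, had 36.5, 53.4 and 49.6 CPM in larva libraries, against 4.68, 6.25 and 5.47 CPM in wounding libraries (log2 fold change 3.09 ± 0.22 SE, adjusted p = 0.000399), and GRMZM2G028104, annotated as an acyltransferase, had 48.8, 89.2 and 79 CPM in larva libraries, against 18.2, 21 and 21 CPM in wounding libraries (log2 fold change 1.85 ± 0.25 SE, adjusted p = 0.00201). Controls had 1010, 33.8 and 259 CPM for GRMZM2G013448, and 521, 77.5 and 178 CPM for GRMZM2G028104, overlapping the larva values. For GRMZM2G067315, given next, controls had 9270, 3470 and 6840 CPM, above every larva value, as for peroxidase 70. The study reports GRMZM2G013448, GRMZM2G028104, GRMZM2G067315 and this peroxidase as repressed after larval feeding. Higher here therefore means higher than after wounding, not higher than in untreated plants. GRMZM2G067315, a glycine-rich wall protein by the study's naming, had 1790, 923 and 904 CPM in larva libraries, against 396, 110 and 505 CPM in wounding libraries (log2 fold change 1.84 ± 0.57 SE, adjusted p = 0.0368) and was not called without any 1 larva library or wounding replicate 1, with larva replicates 2 and 3 summed or with every feature scaled (adjusted p = 0.0595 to 0.0989). The lipid-transfer gene GRMZM2G320373 had 308, 493 and 535 CPM in larva libraries, against 136, 25.4 and 538 CPM in wounding libraries, overlapping between groups, and among the alternatives run was called only without wounding replicate 3 (adjusted p = 0.0457). GRMZM2G045155, a B12D protein, had 1.16, 4.42 and 5.53 CPM in larva libraries, against 7.73, 1.25 and 1.47 CPM in wounding libraries, and its direction changed without larva replicate 2 or 3 or wounding replicate 2 or 3.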

How the data were processed

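MACE libraries came from maize stems. The authors mapped reads with Novoalign 3.00.05, per the submitters' processing notes, assembled the unplaced reads into contigs, and deposited raw counts per feature. The reference was the Ensembl maize genome, release 23, per the study's methods, and its transcriptome. The deposited p-values, FDR values, log2 fold changes and group means hold the authors' own comparisons and were not used, and 0 raw count columns were without a sample.

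Maize features were kept by filterByExpr (minimum count 10, minimum total 15), scaled by TMM and tested with edgeR 4.0.16 (quasi-likelihood, larva against wounding, no block) in R 4.3.3, with Benjamini-Hochberg adjustment over 19023 genes. CPM were computed from the deposited counts with this scaling. Alternatives were DESeq2 1.42.0, limma 3.58.1 (voom), other scalings and filters, a replicate block, all 12 libraries in 1 fit, features of 1 identifier, and each library left out. The fit was tested on simulated data in which 200 genes were changed, far fewer than were called here. There edgeR recovered 0% of changes of 1 on the log2 scale and 79.5% of changes of 2, with 0 and 14 false calls. DESeq2 recovered 33% and 92.5%, with 41 and 53 false calls. A gene that was not called may therefore still differ. The totals per library limit the precision, and counting intervals cover counting error only.

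Gene lists were built from words in the file's descriptions, with wrong matches removed, and benzoxazinoid members were kept only where the file or RefSeq describes an enzyme of the pathway (1 such description, of GRMZM5G841619, differs from its RefSeq synonym). Some lists also took identifiers named by the study, such as GRMZM2G042789 among the protease inhibitors, and the ethylene list did not take GRMZM2G013448. The members and lists were chosen with earlier results of these data known. Named genes were those called, not overlapping and at 10 CPM or more with the 8 largest fold changes or 4 smallest adjusted p-values per direction, the most abundant and lowest-p members of each list, and genes the study names (107 in all). A further 66 were chosen after their values were seen. RefSeq symbols (Zm-B73-REFERENCE-NAM-5.0) matched 13644 tested identifiers and gave names only. Features that join several identifiers (399 tested), and close paralogs, may share reads and are uncertain.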

Additional observations from a re-analysis of the deposited data

Results flagged for a closer look

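Fungal contigs, which lie outside the maize gene comparison, took 3.31% of the counts of larva replicate 1, above the highest control library at 0.501%. The wounding libraries were above that control level too, with 10.9% in replicate 1, 24.8% in replicate 2 and 12.4% in replicate 3, while larva replicates 2 and 3 were not, at 0.223% and 0.236%. Contigs matched to a maize virus took 0.843% of larva replicate 1, and at most 0.00522% of any other library of the series. These shares cover counting error only, and their part in the maize gene results was not tested.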

How the results depend on the processing

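The number of called genes was 8302, and it ranged from 5646 to 8453 when each library was left out in turn, with 2777 to 4086 higher and 2869 to 4367 lower in larva libraries. Larva replicates 2 and 3 summed as 1 sample gave 5835 calls, and leaving out larva replicate 1 together with wounding replicate 2, chosen after seeing the data, gave 7688 (3683 higher, 4005 lower). Scaling moved the split of directions. Total counts alone gave 6984 higher and 2707 lower genes, and scaling over every feature gave 2307 lower. DESeq2 called 8544 genes and limma voom 8173. The difference in the maize share of counts was 20.6 percentage points, 16.4 to 24.4 when 1 library was left out, and 1.77 points when only aligned counts entered, because contigs then drop out of the total.

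Same-numbered larva and wounding libraries did not deviate together (correlations of -0.25, -0.11 and -0.14), so the numbers were not treated as pairs. The replicate block gave 6148 called genes, 3013 higher and 3135 lower.

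Over 173 named genes, 2902 alternative values kept their side of the threshold, 135 lost and 33 gained a call, and 29 changed sign, all for genes that were not called. With total counts alone these were GRMZM2G028821 (0.13), GRMZM2G171179 (0.30), GRMZM2G094742 (0.08), histone H3 (0.07) and GAPC3 (0.27), and with every feature scaled the same 5 genes, at 0.06, 0.21, 0.02, 0.01 and 0.19. Histone H3, GAPC3 and profilin-5 (below) are features that join several identifiers. GRMZM2G171179 also changed with limma voom (0.06) and the block (0.04), profilin-5 with limma voom (0.00) and without larva replicate 1 and wounding replicate 2 (-0.12), and GRMZM2G045155 with larva replicates 2 and 3 summed (-0.20). Over single left-out libraries the log2 fold change ran from -0.49 to 0.09 for GRMZM2G028821, -0.42 to 0.29 for GRMZM2G171179, -0.09 to 0.11 for profilin-5, -1.59 to 0.43 for GRMZM2G044383, -0.38 to 1.39 for GRMZM2G045155, -1 to 0.41 for GRMZM2G168651, -3.47 to 0.51 for GRMZM2G412598 and -0.43 to 0.12 for GAPC3. Over 37 gene lists, 232 of 1386 alternative counts of called members differed by over 1.5 times from the count given, and 70 of 693 medians moved. The cause was not tested. With 3 libraries a group, of which larva replicates 2 and 3 were nearly alike and may share plant material, small differences could not be resolved.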

Other observations

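The following lists were added after the values were seen, and so carry no weight as independent observations. Over all tested genes 21.5% were higher and 22.2% lower. Senescence, autophagy and cysteine protease genes gave 3 of 32 higher, 21 lower, median -0.76. The senescence-associated gene DIN1 (GRMZM2G131087), which responds to darkness and sugar shortage in other plants, had 24.2, 36.7 and 33 CPM in larva libraries, against 656, 1300 and 392 CPM in wounding libraries (log2 fold change -4.64 ± 0.50 SE, adjusted p = 0.001). The groups did not overlap, and the controls were at 15.6, 41.5 and 31 CPM. NAC factors, many of which act in stress and senescence, gave 3 of 41 higher, 19 lower, median -0.71, and NAC68 (GRMZM2G100583) had 80, 83.7 and 84.4 CPM in larva libraries, against 574, 565 and 539 CPM in wounding libraries (log2 fold change -2.76 ± 0.17 SE, adjusted p = 0.000321). Protein phosphatases 2C, which include brakes on abscisic acid signalling, gave 2 of 14 higher, 10 lower, median -0.84, and GRMZM2G082487 fell by 4.68. With larva replicates 2 and 3 summed the counts were 1 higher and 16 lower for senescence, 3 higher and 13 lower for NAC and 0 higher and 10 lower for phosphatases. For senescence there were 1 higher without larva replicate 2 or 3, and 11 lower with total counts alone and 11 lower with every feature scaled. For NAC there were 8 higher without wounding replicate 1 and 12 lower without larva replicate 3. For phosphatases there were 1 higher without larva replicate 1 and 0 higher without larva replicate 2 or 3 or wounding replicate 2 or 3.

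Auxin response and transport genes gave 23 of 56 higher, 12 lower, median 0.65, or 41.1% higher and 21.4% lower, against 21.5% and 22.2% over all tested genes. IAA17 (GRMZM2G147243), a repressor of auxin response, had 316, 311 and 294 CPM in larva libraries, against 40.6, 13.8 and 30.3 CPM in wounding libraries (log2 fold change 3.44 ± 0.39 SE, adjusted p = 0.00112), and auxin transporter-like GRMZM2G127949 rose by 3.04. All 3 larva values of IAA17 lay within 1 SD of its control mean, 356 ± 109 CPM (SD, n = 3). Response regulators of cytokinin signalling gave 4 of 10 higher, 1 lower, median 1.06, a list of few members, and response regulator 7 (GRMZM2G096171) had 81.3, 87.5 and 89.2 CPM in larva libraries, against 10.4, 13.3 and 12.4 CPM in wounding libraries (log2 fold change 2.83 ± 0.16 SE, adjusted p = 0.000275). Summed larva replicates 2 and 3 gave 19 higher and 8 lower for auxin and 4 higher and 0 lower for response regulators, and that list with 0 lower without larva replicate 1, 2 or 3 or wounding replicate 1 or 2.

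Aquaporins gave 5 of 24 higher, 6 lower, median -0.23, a sign that turned with total counts alone (0.16) and with every feature scaled (0.22), with NIP2-2 (GRMZM2G137108) up by 3.26 and TIP4-4, counted jointly with contigs, up by 4.18. MYB factors gave 11 of 91 higher, 23 lower, median -0.03, a sign that turned with total counts alone (0.37), with every feature scaled (0.32), with no filter (0.02) and without larva replicate 1 (0.01) or any 1 wounding library (0.01 to 0.03), with 17 higher without larva replicate 1 and 19 higher without wounding replicate 1. Tubulins, actins and kinesins gave 11 of 45 higher, 7 lower, median 0.17, with 4 lower without larva replicate 2. Proteasome subunits gave 0 of 38 higher, 3 lower, median -0.17, a sign that turned with total counts alone (0.22) and with every feature scaled (0.16), with 1 higher without wounding replicate 3, 6 lower without larva replicate 1, 0 lower without larva replicate 2 or 3 and 1 lower without wounding replicate 3. In edgeR 1 proteasome member was higher at an unadjusted p under 0.05, and DESeq2 and limma voom called 0. Xylan synthesis gave 1 of 5 higher, 0 lower, median 0.31, with 0 higher without larva replicate 1, 2 or 3 or wounding replicate 2 or 3, and 0 lower also at an unadjusted p under 0.05 in edgeR and with DESeq2 and limma voom. In the fit with larva replicates 2 and 3 summed the counts were 4 higher and 5 lower for aquaporins, 9 higher and 18 lower for MYB, 13 higher and 4 lower for cytoskeleton, 0 higher and 0 lower for proteasome and 0 higher and 0 lower for xylan.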
